A study of Mus musculus with 47 samples.

Results

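H3K27ac, the acetyl mark of active enhancers and promoters, was compared between male and female livers that lack both Ezh1 and Ezh2 (E1/E2-KO livers). The members were the peaks of the deposited E1/E2-KO male list and the deposited E1/E2-KO female list on the 19 autosomes, which numbered 55055 in male liver and 50426 in female liver, or 105481 of the 498557 peaks and regions in the 12 lists of the series. A peak with at least 1 bp in the list of the other sex was called shared. A peak without such an overlap was called male-only or female-only, and both kinds together are called one-list peaks. E1/E2-KO mice were Ezh1-/-, EZH2f/f, AC+, that is, without Ezh1 in any cell and with floxed Ezh2 removed by Cre recombinase driven by the albumin promoter, so that non-parenchymal liver cells kept Ezh2. Floxed control mice carried Ezh2 f/f without Cre. All mice were 7 week old males or females, and each H3K27ac group had 4 livers, whose reads were pooled by the authors before peaks were called. The E1/E2-KO H3K4me1 groups had 4 male and 3 female samples in the sample records. The paper's methods give 4 livers per group for each mark. Whether the female H3K4me1 list pools 3 or 4 livers is therefore not clear, and the H3K4me1 comparison may rest on unequal numbers. With 1 list per group there is no spread between livers, so no difference below was tested, and intervals are Wilson 95% intervals of shares that cover counting error only.

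H3K27ac is placed by the acetyltransferases p300 and CBP and cannot stand on the same lysine as H3K27me3, the repressive mark written by EZH1 and EZH2. H3K4me1 marks enhancers whether active or only primed. Sex-biased genes of mouse liver follow the sex-dependent pattern of pituitary growth hormone release, which acts through STAT5 and through repressors such as BCL6 in male liver and CUX2 in female liver, and many female-biased genes carry H3K27me3 in male liver.

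Sequences are shown for one-list peaks at the leading gene of each sex and at genes known for sex bias in mouse liver, because at these positions H3K27ac was listed in 1 sex alone in E1/E2-KO liver, though not always in control liver. Apart from Scara5, Sntb1, C6 and A1bg, the windows were picked, widest peak first, from those with a match to TTCNNNGAA or to ATCGAT, the core bound by CUX2 and ONECUT1. Each window so picked held TTCNNNGAA, which is present in 8.86% of male-only and 9.39% of female-only windows. Each run is the 300 bases centred on a peak, read 5′ to 3′ on the plus strand of NCBIM37 (mm9), with matches to TTCNNNGAA, the palindrome bound by STAT5 and BCL6, in capitals. The male-only peaks were the widest one at Scara5, a ferritin receptor gene (chr14:66286390-66286689, intronic, with 911 bp from the gene start to the peak), one upstream of Serpina1e, a protease inhibitor (chr12:105200325-105200624, intergenic), one over an exon of Keg1, a glycine N-acyltransferase-like gene (chr19:12793354-12793653), one upstream of Hsd3b2, a steroid dehydrogenase (chr3:98537855-98538154, intergenic), and one that begins 34 bp inside C6, a subunit of the complement attack complex (chr15:4677712-4678011, over an exon).
Scara5: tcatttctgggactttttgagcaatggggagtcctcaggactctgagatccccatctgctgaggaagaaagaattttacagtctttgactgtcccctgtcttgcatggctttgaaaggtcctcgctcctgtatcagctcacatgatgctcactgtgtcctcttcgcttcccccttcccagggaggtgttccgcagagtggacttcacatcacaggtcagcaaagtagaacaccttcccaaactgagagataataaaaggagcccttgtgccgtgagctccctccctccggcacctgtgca
Serpina1e: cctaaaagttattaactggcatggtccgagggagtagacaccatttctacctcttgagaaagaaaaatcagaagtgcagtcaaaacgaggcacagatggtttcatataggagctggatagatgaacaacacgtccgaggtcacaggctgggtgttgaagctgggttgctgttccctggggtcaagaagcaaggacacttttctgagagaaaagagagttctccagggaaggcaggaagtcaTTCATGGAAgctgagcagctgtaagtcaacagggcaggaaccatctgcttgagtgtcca
Keg1: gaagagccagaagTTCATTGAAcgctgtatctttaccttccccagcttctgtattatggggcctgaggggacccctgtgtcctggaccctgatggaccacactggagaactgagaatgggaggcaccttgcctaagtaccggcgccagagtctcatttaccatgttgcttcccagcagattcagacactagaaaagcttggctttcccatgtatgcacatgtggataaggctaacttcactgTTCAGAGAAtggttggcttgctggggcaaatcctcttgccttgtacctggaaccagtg
Hsd3b2: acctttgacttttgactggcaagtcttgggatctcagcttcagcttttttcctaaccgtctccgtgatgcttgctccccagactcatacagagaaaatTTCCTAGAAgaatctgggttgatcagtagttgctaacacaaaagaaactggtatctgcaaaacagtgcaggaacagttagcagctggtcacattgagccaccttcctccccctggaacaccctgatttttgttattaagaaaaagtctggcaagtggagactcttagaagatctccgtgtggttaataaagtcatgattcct
C6: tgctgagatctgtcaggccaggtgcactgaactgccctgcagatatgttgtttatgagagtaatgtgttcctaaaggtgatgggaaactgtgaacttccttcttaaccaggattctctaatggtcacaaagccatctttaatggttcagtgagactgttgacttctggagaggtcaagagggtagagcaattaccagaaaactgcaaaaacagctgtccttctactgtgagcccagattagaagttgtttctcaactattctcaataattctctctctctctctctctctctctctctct

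The female-only peaks were the widest one at Sntb1, which encodes a syntrophin of the dystrophin complex (chr15:55626283-55626582, intronic), an intronic one of Cux2 (chr5:122451214-122451513), an intronic one of Cyp2b13, a female-biased cytochrome P450 (chr7:26876127-26876426), and an intronic one of Abcb1a, which encodes a drug efflux pump (chr5:8660735-8661034). The last was one that begins 75 bp inside A1bg, a plasma glycoprotein, counted along the gene (chr15:60752191-60752490, over an exon).
Sntb1: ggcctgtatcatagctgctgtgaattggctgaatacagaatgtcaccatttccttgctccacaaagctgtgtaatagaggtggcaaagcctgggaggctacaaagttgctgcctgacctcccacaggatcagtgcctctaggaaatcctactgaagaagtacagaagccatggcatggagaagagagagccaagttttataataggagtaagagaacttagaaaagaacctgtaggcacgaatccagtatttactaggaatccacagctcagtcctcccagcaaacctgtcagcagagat
Cux2: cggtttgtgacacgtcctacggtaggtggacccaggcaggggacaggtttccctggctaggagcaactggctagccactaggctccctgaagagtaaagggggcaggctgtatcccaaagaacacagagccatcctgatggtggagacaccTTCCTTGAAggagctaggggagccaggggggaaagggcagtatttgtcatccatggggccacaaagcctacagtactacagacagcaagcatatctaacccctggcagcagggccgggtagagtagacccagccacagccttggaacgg
Cyp2b13: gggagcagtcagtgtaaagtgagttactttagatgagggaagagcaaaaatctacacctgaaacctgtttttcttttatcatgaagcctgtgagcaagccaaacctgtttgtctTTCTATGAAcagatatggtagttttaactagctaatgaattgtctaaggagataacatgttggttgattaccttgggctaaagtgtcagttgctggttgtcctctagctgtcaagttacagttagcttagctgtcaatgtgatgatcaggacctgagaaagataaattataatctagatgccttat
Abcb1a: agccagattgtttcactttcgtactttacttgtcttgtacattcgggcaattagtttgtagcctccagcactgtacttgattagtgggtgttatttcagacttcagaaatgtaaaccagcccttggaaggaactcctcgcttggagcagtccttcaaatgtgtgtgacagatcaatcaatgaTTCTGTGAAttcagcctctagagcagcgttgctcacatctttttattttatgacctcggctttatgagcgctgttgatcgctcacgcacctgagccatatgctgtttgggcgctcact
A1bg: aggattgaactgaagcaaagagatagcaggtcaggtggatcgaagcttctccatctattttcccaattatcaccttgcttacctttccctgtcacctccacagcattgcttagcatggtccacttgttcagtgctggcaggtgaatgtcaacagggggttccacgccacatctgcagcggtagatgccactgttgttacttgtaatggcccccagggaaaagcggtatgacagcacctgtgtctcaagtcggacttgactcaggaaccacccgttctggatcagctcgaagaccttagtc

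The C6 and A1bg peaks were added after their values were seen. They stood 379193 bp and 72520 bp from the nearest peak of the other sex, whereas the Serpina1e and Abcb1a peaks stood only 181 bp and 136 bp from one. No window above held ATCGAT, although a match to it also counted in the choice of windows.

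Most H3K27ac peaks were found in both sexes, and those found in one sex were narrow. Of the male peaks, 16838 (30.6%, 30.2 to 31.0) were male-only, and of the female peaks, 10753 (21.3%, 21.0 to 21.7) were female-only. Male-only peaks had a median width of 282 bp, against 573 bp for shared peaks of the male list. Female-only peaks had a median width of 250 bp, against 480 bp for shared peaks of the female list. Among peaks under 300 bp, 63.7% of the male list and 45.9% of the female list were absent from the other sex. The share fell with every step of width, and among peaks of 1000 bp or more it was 0.607% in the male list (45 of 7418) and 0.102% in the female list (5 of 4900). No peak score was used, and the depth of the pooled reads was not given in the sources used here, so the part of depth in these shares was not tested. The male list was also the longer one, with 31.5 Mb under peaks against 26.0 Mb.

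**Figure D1:**
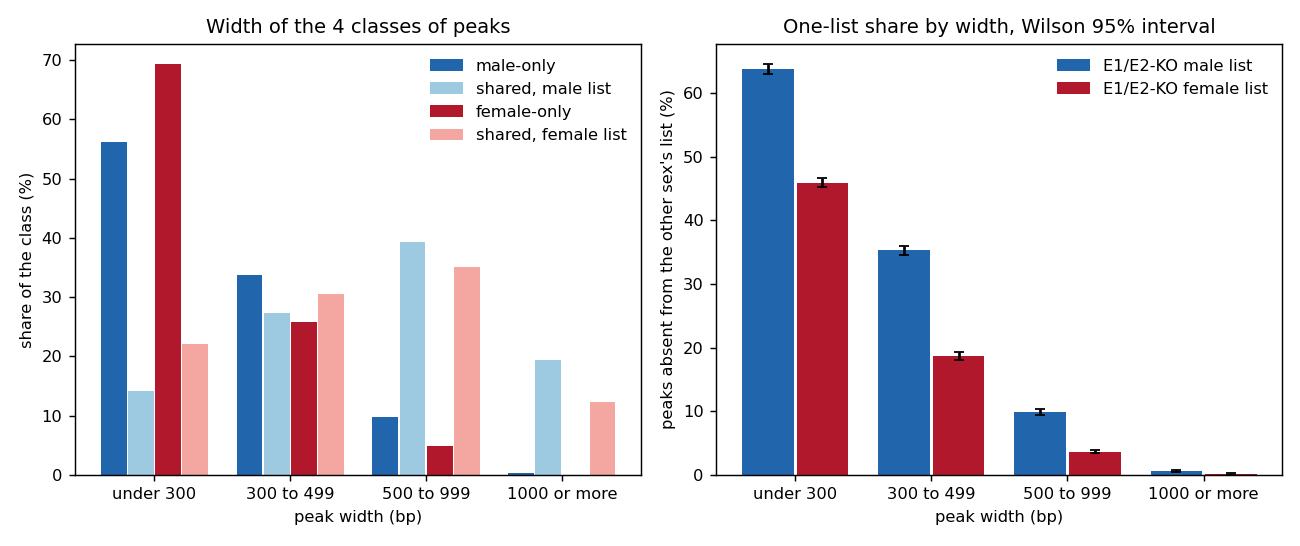
The left panel gives the share of each class of E1/E2-KO H3K27ac peaks (male-only, shared in the male list, female-only, shared in the female list) in 4 ranges of width, and the right panel gives the share of each list that is absent from the list of the other sex, with Wilson 95% intervals. Male-only and female-only peaks lie mostly under 300 bp (56.2% and 69.2%), and the one-list share drops from 63.7% to 0.607% in the male list and from 45.9% to 0.102% in the female list as peaks widen.

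Many one-list peaks stood beside a peak of the other sex. A peak of the other list lay within 1 kb of 34.1% (33.4 to 34.8) of male-only peaks and 36.1% (35.2 to 37.0) of female-only peaks. The median gap to the nearest peak of the other sex was 4988 bp for male-only peaks and 4429 bp for female-only peaks. Counted in bases rather than peaks, 34.8% of the male peak bases lay outside the female list and 21.1% of the female peak bases lay outside the male list.

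One-list peaks were mostly distal. A promoter, taken as the 1 kb on either side of an annotated transcript start, was within reach of 11.7% (11.2 to 12.2) of male-only peaks, 13.1% (12.5 to 13.8) of female-only peaks and 39.2% (38.7 to 39.7) of shared peaks in the male list. The gap depended on width. Among peaks under 300 bp, which make up most one-list peaks, 11.6% of male-only, 12.5% of female-only and 18.8% of shared male peaks were promoter peaks. Among peaks of 500 bp or more, 11.9% of male-only, 15.8% of female-only and 50.9% of shared male peaks were promoter peaks. Introns held 47.7% of male-only and 47.8% of female-only peaks, against 30.6% of shared male peaks. Away from promoters the classes lay at like distances from genes, with a median of 16289 bp to the nearest start for male-only peaks, 16234 bp for female-only peaks and 14960 bp for shared male peaks.

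H3K4me1 did not divide the one-list peaks by sex. The E1/E2-KO male H3K4me1 list overlapped 45.1% (44.3 to 45.8) of male-only H3K27ac peaks, and the E1/E2-KO female H3K4me1 list overlapped 32.5% of them. Female-only H3K27ac peaks, too, were overlapped more often by the male H3K4me1 list (39.7%, 38.7 to 40.6) than by the list of their own sex (29.5%, 28.6 to 30.3). The male H3K4me1 list was longer, with 67161 autosomal peaks against 50922, and shared H3K27ac peaks had the same order, with 60.9% in the male and 46.8% in the female H3K4me1 list. H3K4me1 found in the male list alone covered 18.8% of male-only, 16.4% of female-only and 19.2% of shared male peaks. H3K4me1 found in the female list alone covered 6.22% of male-only, 6.21% of female-only and 5.12% of shared male peaks. Neither H3K4me1 list covered 48.7% of male-only and 54.1% of female-only peaks, against 34.0% of shared male peaks. Among peaks under 300 bp, the male H3K4me1 list overlapped 38.7% of male-only and 51.3% of shared male peaks, and 35.8% of female-only and 53.1% of shared female peaks. Among peaks of 500 bp or more the classes were close. There the male H3K4me1 list overlapped 63.1% (60.7 to 65.3) of male-only and 64.9% of shared male peaks. For female-only and shared female peaks the values were 59.0% (54.8 to 63.1) and 60.1%. These wide classes were not matched for position, since 11.9% of male-only but 50.9% of shared male peaks were promoter peaks. Over distal peaks of all widths, the male H3K4me1 list overlapped 44.7% of male-only and 66.5% of shared male peaks. The distal values were 39.2% of female-only and 65.5% of shared female peaks.

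In control liver, most one-list sites had no H3K27ac peak in either sex. This held for 63.8% of male-only and 66.2% of female-only peaks, against 11.7% of shared male peaks. Among peaks of 500 bp or more it held for fewer, 38.6% of male-only, 46.6% of female-only and 3.70% of shared male peaks, and among peaks under 300 bp the shared male value was 35.0%. The control lists differ in length, with 28862 male and 48858 female peaks on autosomes, so each control list is best read across the classes. The control male list overlapped 11.3% (10.9 to 11.8) of male-only and 6.42% (5.97 to 6.90) of female-only peaks. The control female list overlapped 32.3% (31.6 to 33.0) of male-only and 31.6% (30.7 to 32.5) of female-only peaks. For peaks of 500 bp or more, the control male list overlapped 26.4% (24.4 to 28.6) of male-only but 11.5% (9.03 to 14.5) of female-only peaks, and the control female list overlapped 54.2% and 50%.

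Female-only H3K27ac peaks lay more often than the other classes in chromatin that carried H3K27me3 in control liver. The middle of 33.5% (32.6 to 34.4) of female-only peaks was inside an H3K27me3 region of control male liver, against 27.1% (26.5 to 27.8) of male-only and 21.2% (20.8 to 21.6) of shared female peaks. Among distal peaks of 500 bp or more the values were 37.1% (32.7 to 41.6) of 448 female-only, 21.7% (19.7 to 23.9) of 1488 male-only and 19.7% (18.9 to 20.6) of 8314 shared female peaks. Of the same 448 female-only peaks, 12.5% (9.75 to 15.9) were inside a region of control male liver alone and 1.79% (0.908 to 3.48) inside a region of control female liver alone. Shared female peaks of that kind had 6.75% and 2.44%. Over distal peaks of all widths, the share inside a region of control male liver alone was 8.94% of 9342 female-only and 6.90% of shared female peaks, so the gap was smaller than among the wide peaks. The control male H3K27me3 list covers more of the autosomes than the control female list, 765 Mb against 630.1 Mb, and the part of this in the values was not tested. Regions of E1/E2-KO male liver held 37.9% (33.6 to 42.5) of these female-only and 34.5% (33.5 to 35.5) of these shared female peaks. Regions of E1/E2-KO female liver held 25.2% (21.4 to 29.4) and 19.3% (18.5 to 20.2).

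**Figure D2:**
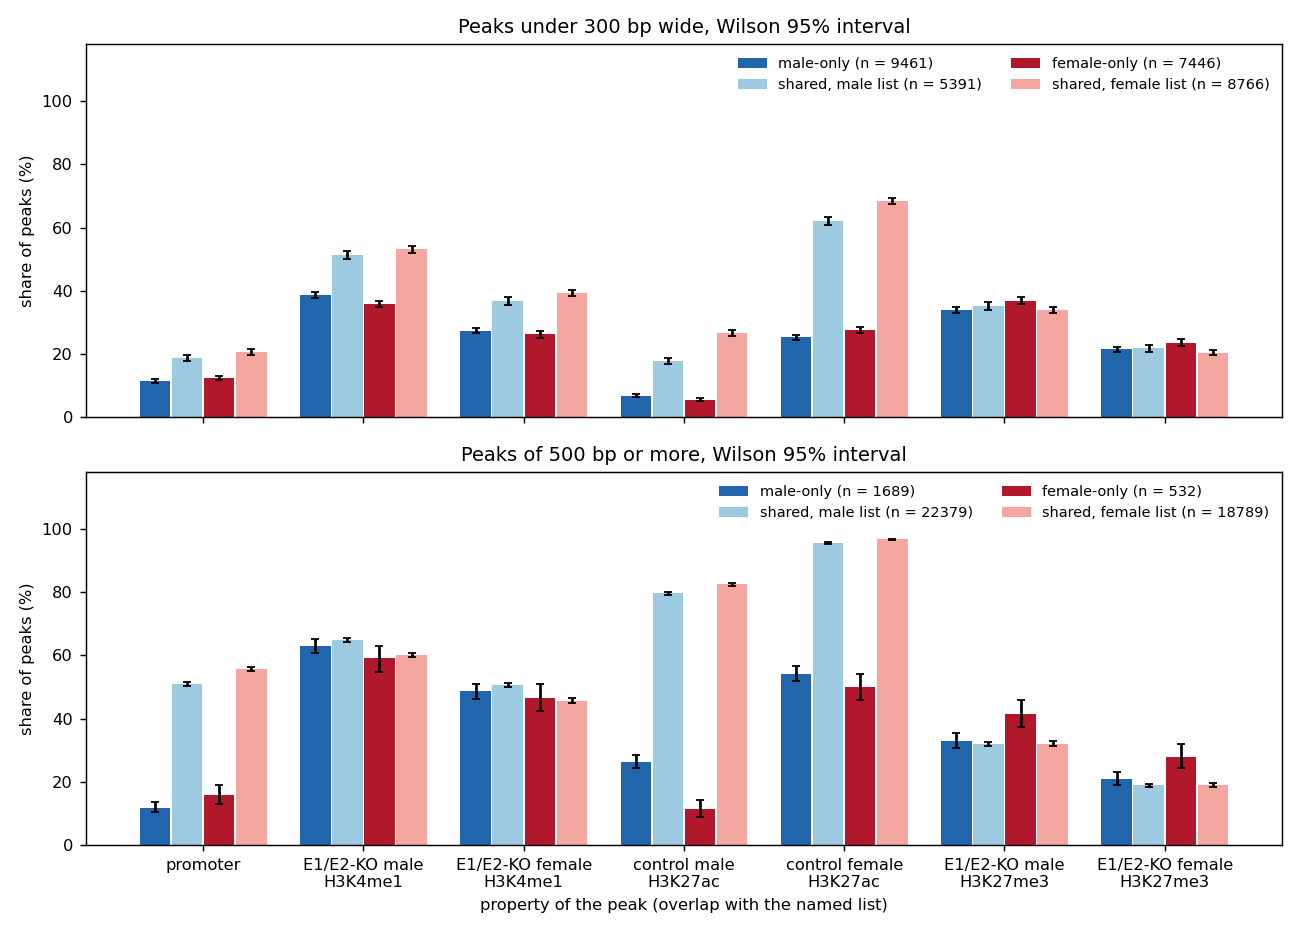
Shares of the 4 classes of E1/E2-KO H3K27ac peaks that are promoter peaks, overlap the E1/E2-KO H3K4me1 or control H3K27ac lists, or have their middle inside an E1/E2-KO H3K27me3 region, for peaks under 300 bp (top) and of 500 bp or more (bottom), with Wilson 95% intervals. The male H3K4me1 bar is above the female one in every class, and among wide peaks the control male H3K27ac bar is higher for male-only (26.4%) than for female-only peaks (11.5%).

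Next, the peaks were assigned to genes. Of 21418 protein-coding autosomal genes, 7603 (35.5%) had a male-only peak in the gene span with 10 kb on either side, 5857 (27.3%) had a female-only peak and 3546 had both. Genes with 3 or more male-only and no female-only peaks numbered 475 (2.22%), and genes with 3 or more female-only and no male-only peaks numbered 129 (0.602%). Long genes collect more peaks, and the median length was 48.5 kb for the 475 genes and 49.4 kb for the 129, against 15.5 kb for all genes. These counts depended on how peaks were selected. When the longer list was cut to its widest 50426 peaks, the length of the other, they were 295 and 220.

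Scara5 (chr14:66285240-66383663) had the most male-only peaks without a female-only peak. The E1/E2-KO male list held 12 H3K27ac peaks at the gene, 11 of them male-only, and the female list held 1. The control male list overlapped 5 of the 11 sites and the control female list 0. H3K27me3 regions of both E1/E2-KO lists held 8 of the 11 sites. Over all male-only peaks, the middle of 34.0% was inside a region of E1/E2-KO male liver. For regions of E1/E2-KO female liver it was 21.4%. Scarb1, which encodes the receptor for high density lipoprotein, followed with 10 male-only peaks among 16 male and 8 female peaks, but here the control female list held 7 of the 10 sites and the control male list 0. The control female list is the longer one. It overlapped 32.3% of all male-only peaks, against 11.3% for the control male list. The muscle LIM protein gene Csrp3 had 7 male-only peaks among 9 male and 2 female ones, and 6 of them were in the control female list. The other genes chosen by this count had 7 or 8 male-only peaks each. They were 2810055G20Rik, 3010026O09Rik, Ston1 (an endocytic adaptor), Capn8 (a calpain protease), Ptprf (a receptor phosphatase), Smyd1 (a muscle methyltransferase) and Tec (a tyrosine kinase). At Ptprf every male-only peak stood within 1122 bp of a female peak, whereas at 2810055G20Rik the nearest female peaks were 5203 bp to 23303 bp away and no site was in a control list.

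Sntb1 had the most female-only peaks without a male-only one, 8 among 17 female and 9 male peaks, of 201 to 421 bp, and 4 of them were in the control female list. Cd36 (chr5:17287508-17394777), the fatty acid translocase, had 7 female peaks and 1 male peak in E1/E2-KO liver. Its 6 female-only peaks lay inside the gene, 3379 to 52232 bp from the nearest male peak, and 2 of them were in the control female list and 0 in the control male list. H3K4me1 at Cd36 was listed in both sexes, with 8 male and 6 female peaks. Dusp10, a phosphatase of MAP kinases, had 10 female and 4 male peaks. Ldlrad3 had 22 and 15, and B230120H23Rik had 9 and 3, each with 6 female-only peaks. The other genes, with 5 female-only peaks each, were C1qtnf1 (a secreted C1q family protein), Gm12216, Tbc1d16 (a Rab GTPase activator), Tead1 (a transcription factor of the Hippo pathway) and Acoxl (an acyl-CoA oxidase-like gene).

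**Figure D3:**
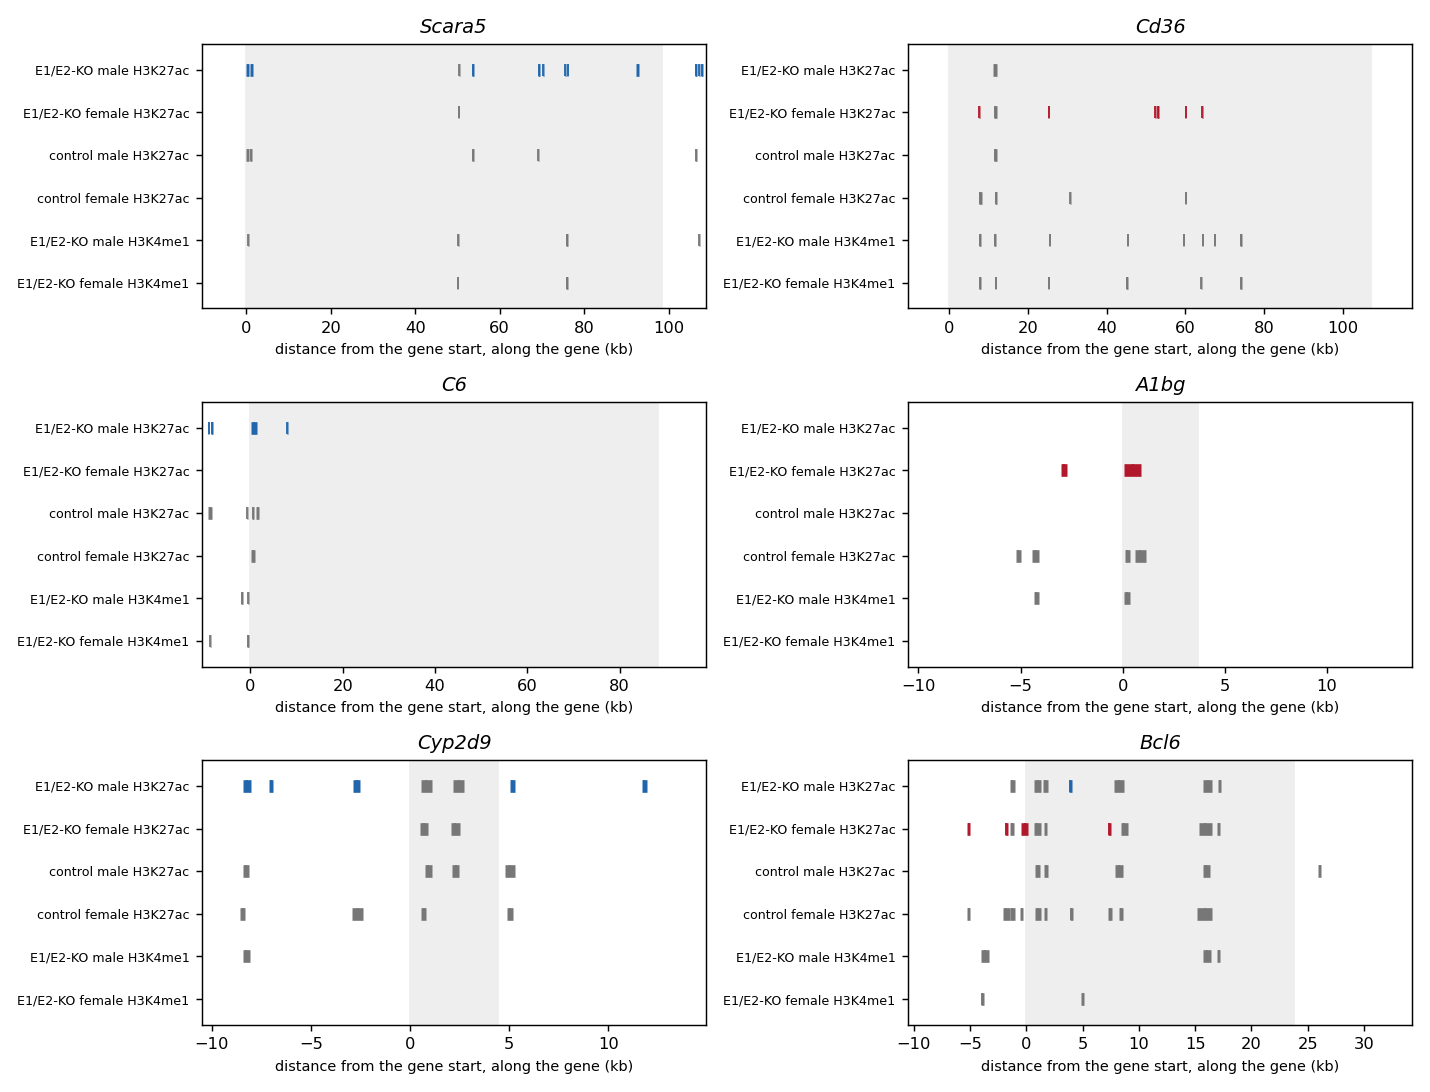
Peaks around 6 genes, drawn to scale as distance in kb from the gene start along the gene, with a row for each list (E1/E2-KO and control H3K27ac, E1/E2-KO H3K4me1). Male-only peaks are blue, female-only peaks red, all other peaks grey, and the gene is shaded. Scara5 and C6 show peaks in the E1/E2-KO male row that the female row lacks, Cd36 and A1bg show the opposite, and Bcl6 has 4 female-only peaks and 1 male-only peak.

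Among one-list peaks, male-only ones were the more numerous at genes known to be male-biased in mouse liver, as over all genes, and female-only ones at genes known to be female-biased. Most peaks at these genes were shared. Of 30 male-biased genes, 18 had more male-only than female-only peaks, 3 had fewer and 9 had equal numbers, with 54 male-only and 26 female-only peaks in all. Of 33 female-biased genes, 16 had more female-only than male-only peaks, 7 had fewer and 10 had equal numbers, with 56 female-only and 36 male-only peaks. Over all protein-coding genes, 25.6% had more male-only and 14.1% more female-only peaks, and male-only peaks made up 60.8% of the distinct one-list peaks near genes, against 67.5% (56.6 to 76.8) in the male-biased and 39.1% (29.8 to 49.3) in the female-biased list. The interval of the male-biased list holds the value of all genes, and that of the female-biased list lies below it. The median of male-only peaks per 10 kb was 0.28 in the male-biased list, 0 in the female-biased list and 0 over all genes, and that of female-only peaks was 0, 0.189 and 0. With the widest 50% of each list, 8 male-biased genes were left with more male-only peaks and 2 with fewer, and with equal numbers of peaks in both lists these were 14 and 7. In control liver, where the female H3K27ac list is far longer, male-only peaks made up 16.9% (10.49 to 25.96) of the one-list H3K27ac peaks at male-biased and 2.86% (0.976 to 8.07) at female-biased genes, against 10.1% over all genes. H3K4me1 of E1/E2-KO liver did not have this order. Male-only peaks made up 67.1% (55.5 to 77.0) of the one-list H3K4me1 peaks at male-biased genes and 77.1% (68.2 to 84.1) at female-biased genes. The value over all genes was 71.5%. The male-only share of H3K4me1 was thus higher at female-biased genes, though both intervals hold the value of all genes.

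**Figure D4:**
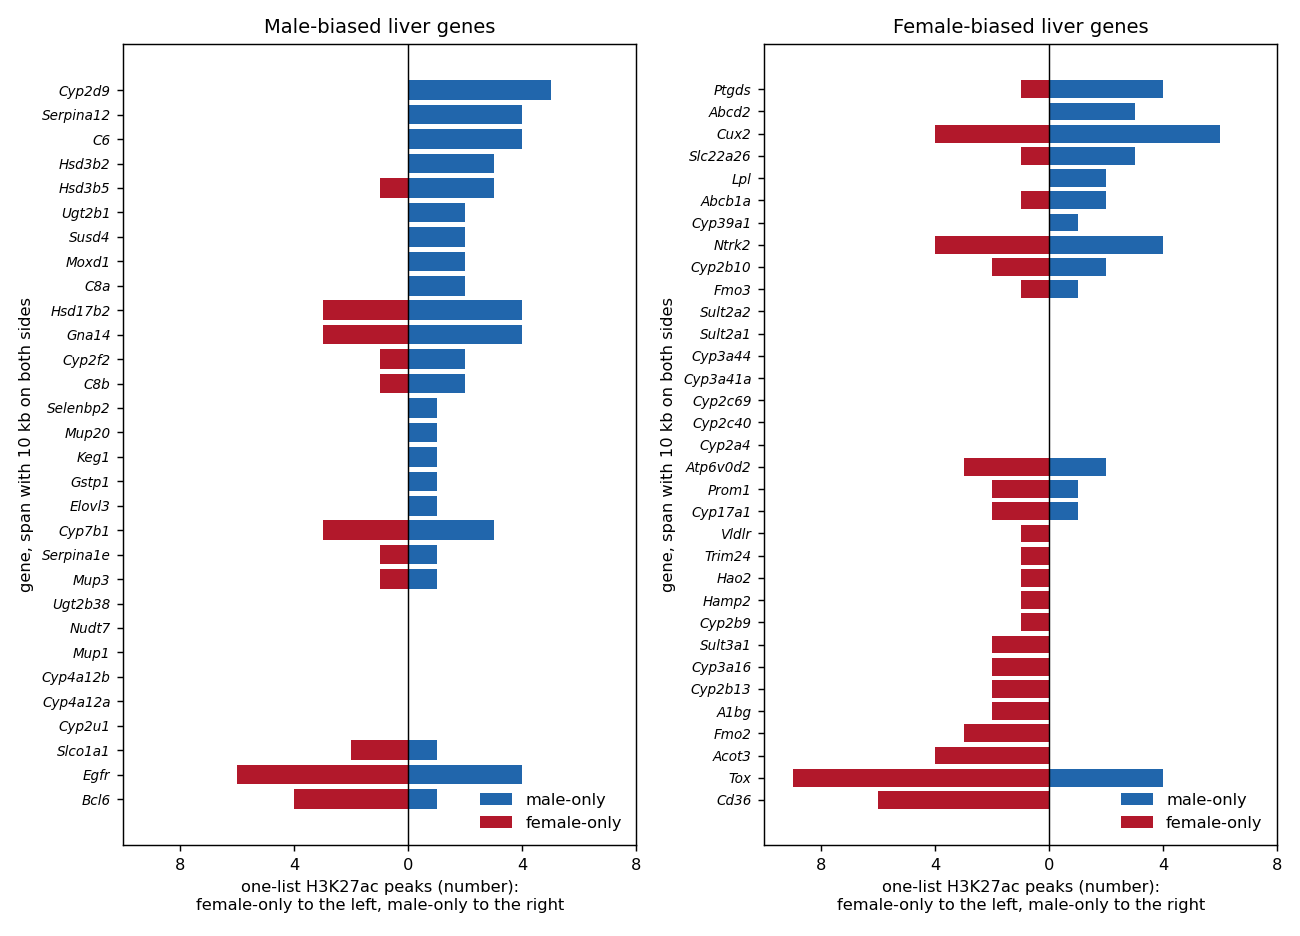
Numbers of male-only (blue, to the right) and female-only (red, to the left) H3K27ac peaks at each of the 30 male-biased and 33 female-biased liver genes, within the gene span and 10 kb on both sides. Cyp2d9, Serpina12, C6 and Hsd3b2 have male-only peaks alone, Cd36, Acot3 and Fmo2 have female-only peaks alone, and Bcl6 and Egfr lean to female-only peaks.

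Among the male-biased genes, C6 (chr15:4677175-4765456) stood out by distance. Its 4 peaks in the E1/E2-KO male list, of 226 to 1306 bp, had no peak of the female list within 372461 bp, and 3 of them were in the control male list and 1 in the control female list. Cyp2d9 (chr15:82282807-82287257), a male-biased steroid hydroxylase, had 7 male and 2 female peaks, 5 of them male-only, all outside the gene body and 2513 to 9176 bp from a female peak. Of these 5 sites, 2 were in the control male and 3 in the control female list. Hsd3b5 and Hsd3b2, neighbouring 3β-hydroxysteroid dehydrogenase genes, had 3 male-only peaks each, of 211 to 301 bp, and Hsd3b5 also had 1 female-only peak of 264 bp, which was in the control female list. Serpina12, the adipokine vaspin, had 4 male-only peaks among 10 male and 5 female ones, all within 947 bp of a female peak. Moxd1, a copper monooxygenase gene, had 2 male peaks and 0 female peaks, and both lay inside E1/E2-KO H3K27me3 regions of both sexes. Such male and female regions held the middle of 34.0% and 21.4% of all male-only peaks. C8a, a complement subunit, Ugt2b1, a glucuronosyltransferase, and Susd4, a complement regulator, had 2 male-only peaks each.

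Among the male-biased genes, Bcl6, Egfr and Slco1a1 had more female-only peaks. Bcl6, the male-biased repressor of female-biased genes, had 10 female and 7 male peaks with 4 female-only and 1 male-only, and all 5 of these sites were in the control female list while 0 were in the control male list. Its widest female-only peak was 690 bp. Over all female-only peaks, the longer control female list overlapped 31.6% and the control male list 6.42%. Egfr, the epidermal growth factor receptor, had 6 female-only and 4 male-only peaks. No H3K27ac peak of any list lay at Cyp4a12a, Cyp4a12b, Mup1 or Ugt2b38, members of gene families with near-identical copies. Reads may not be assigned to 1 copy there, but this was not tested. Mup3 and Mup20, of the same family as Mup1, did have E1/E2-KO peaks (4 male and 4 female, 4 male and 3 female).

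Among the female-biased genes, A1bg and Sult3a1, a sulfotransferase, had 2 female peaks and 0 male peaks each in E1/E2-KO liver. The nearest male peak was 69446 bp away at A1bg and 39897 bp at Sult3a1. The A1bg peak at the gene start was 819 bp wide and was in the control female list. Acot3, a peroxisomal acyl-CoA thioesterase gene, had 7 female and 3 male peaks, and the widest of its 4 female-only peaks, 1263 bp, was the widest female-only peak of all and was in the control female list. It overlapped the neighbouring thioesterase gene Acot4. Fmo2, a flavin monooxygenase, had 3 female-only peaks among 9 female and 7 male ones. Cyp2b13 and Cyp3a16, female-biased cytochromes P450, had 2 female-only peaks each, and none of these sites was in a control list. Tox, a chromatin factor gene of 305 kb, had 9 female-only and 4 male-only peaks among 28 female and 22 male ones.

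Among the female-biased genes, Cux2, Ptgds, Abcd2, Slc22a26, Lpl, Abcb1a and Cyp39a1 had more male-only peaks. Cux2, the female-specific repressor of male-biased genes, had 19 male and 18 female peaks, 6 male-only and 4 female-only. All 6 of its male-only sites overlapped E1/E2-KO H3K27me3 regions of both sexes. Of its 4 female-only sites, 4 overlapped regions of E1/E2-KO male liver and 1 a region of E1/E2-KO female liver. By the middle of the peak, such male and female regions held 34.0% and 21.4% of all male-only peaks. For all female-only peaks the values were 37.1% and 24.0%. Ptgds, a prostaglandin D synthase, had 4 male-only and 1 female-only peak. Abcd2, a peroxisomal fatty acid transporter, had 3 and 0, Slc22a26, an organic anion transporter, had 3 and 1, and Lpl, lipoprotein lipase, had 2 and 0. Abcb1a, whose female-only peak is printed above, had 2 and 1, and Cyp39a1, an oxysterol hydroxylase, had 1 and 0. Cyp2a4, Cyp3a41a, Sult2a1 and Sult2a2 had no peak in any H3K27ac list and, like the male genes above, have close copies in the genome. The part of read assignment in this was not tested. Cyp3a16, of the same family as Cyp3a41a, did have E1/E2-KO peaks (2 male and 4 female).

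Genes of growth hormone signalling had one-list peaks of both kinds, 32 male-only and 29 female-only over 24 genes (52.5% male-only, 40.2 to 64.5, against 60.8% over all genes). More male-only peaks were counted at 8 genes (33.3%) and more female-only peaks at 5 (20.8%), against 25.6% and 14.1% of all protein-coding genes. Stat5b, the main growth hormone effector in liver, had 3 female-only and 0 male-only peaks, none in a control list, among 13 female and 10 male peaks. Ghr, the growth hormone receptor, had 6 male-only and 4 female-only peaks. Igf1, its main target, had 2 and 4. Hnf4a, the hepatocyte nuclear receptor, had 4 male-only peaks, of which 3 were in the control female list.

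Of 26 genes of lipid synthesis and storage, 16 (61.5%) had more male-only and 5 (19.2%) more female-only peaks. Over all protein-coding genes these shares were 25.6% and 14.1%, and over those with any E1/E2-KO peak 35.5% and 19.5%. Male-only peaks made up 61.4% (50.7 to 71.2) of the distinct one-list peaks at these genes, near the 60.8% of all genes. Ppara, the receptor of fatty acid oxidation, had 3 male-only peaks, and Pparg, the receptor of fat storage, had 6 male-only and 2 female-only. Scd1, a desaturase, had 3 male-only peaks and Plin5, a lipid droplet protein, 2. Elovl5, an elongase, had 5 male-only and 2 female-only. Fasn, fatty acid synthase, had 2 female-only peaks and 0 male-only, both within 253 bp of a male peak, and Acacb, an acetyl-CoA carboxylase, had 3 female-only and 1 male-only. At genes of fibrosis and matrix the counts were 34 male-only and 23 female-only over 34 genes, a male-only share of 59.6% (46.7 to 71.4) that is also near that of all genes, with Tgfbr2, the type II receptor of TGFβ, at 6 and 2, Smad3, its signal transducer, at 5 and 2, Fn1, fibronectin, at 3 and 0, Pdgfc, a growth factor, at 3 and 1 and its relative Pdgfb at 1 and 3. Spp1, osteopontin, had 2 male peaks at its promoter and 0 female peaks in E1/E2-KO liver, and both sites were in the control female list, which is the longer control list. Genes of fetal liver and tumour growth had 11 male-only and 9 female-only peaks over 21 genes, a male-only share of 55% (34.2 to 74.2), with Yap1, the Hippo effector, at 3 and 1, Afp, the fetal serum protein, at 2 and 0 and Ccnd1, cyclin D1, at 0 and 2.

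**Figure D5:**
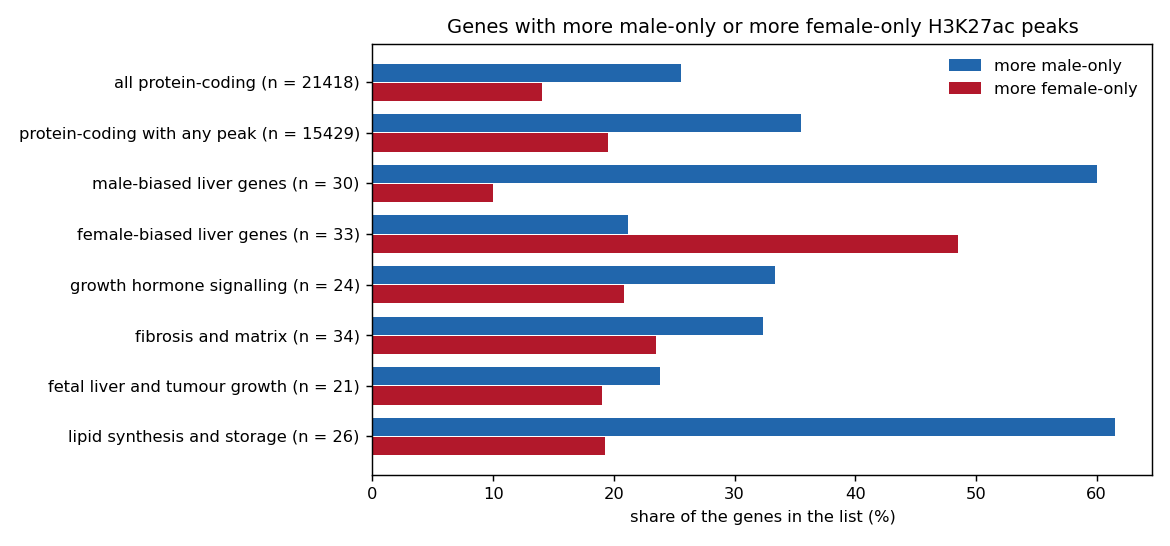
Share of genes with more male-only (blue) or more female-only (red) H3K27ac peaks, for all protein-coding genes, those with any E1/E2-KO peak and the lists with 20 or more genes. Male-biased liver genes stand at 60% and 10%, female-biased liver genes at 21.2% and 48.5%, and all protein-coding genes at 25.6% and 14.1%. A high male-only share is not particular to the male-biased list, since genes of lipid synthesis and storage stand at 61.5% and 19.2%.

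Some one-list peaks came in runs. A run was 4 or more one-list peaks of 1 sex in a row, at most 50 kb apart, with no other E1/E2-KO peak between them. There were 233 male-only and 51 female-only runs, of which 164 and 37 had only 4 peaks. They were drawn from 16838 male-only peaks (30.6% of the male list) and 10753 female-only peaks (21.3% of the female list). A class that makes up more of its list can form runs more easily, and the part of this in the counts was not tested. The longest male-only run had 10 peaks over 64 kb at Scara5. Runs of 7 lay in Wwp2, a ubiquitin ligase gene, and in Igf1r, the receptor of insulin-like growth factor. A run of 6 spanned 21.8 kb at a distance of 13414 bp from Cyp4a12a, the male-biased fatty acid hydroxylase, and 4 of its 6 peaks were in the control male list and 0 in the control female list. The longest female-only run had 6 peaks in Bach2, a lymphoid transcription factor gene, none of them in a control list. Runs of 5 lay at Fabp12, a fatty acid binding protein gene, where 4 of 5 sites were in the control female and 2 in the control male list, and at Cd36. The next were intergenic, with Irg1 and Mpp6 as the nearest genes.

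In all, 6 short motifs were searched in the 300 bases at the middle of every peak, on both strands. TTCNNNGAA was present in 8.97% (8.52 to 9.44) of distal male-only, 9.63% (9.05 to 10.2) of distal female-only and 9.11% (8.75 to 9.49) of distal shared male windows, and in 8.30% of all male and 8.47% of all female windows. ATCGAT was present in 0.70%, 0.792% and 0.895% of the same 3 distal classes, and in 0.848% of all male windows. The motifs TGTTTAC (FOXA), CAAAGTCCA (HNF4A), TGANTCA (AP-1) and GAGGAAGT (PU.1 and other ETS factors) were in 4.74%, 0.753%, 9.57% and 2.31% of distal male-only windows and in 4.61%, 0.599%, 9.38% and 2.65% of distal female-only windows. Over all distal male windows their shares were 4.72%, 0.808%, 9.39% and 2.33%, and over all distal female windows 4.66%, 0.709%, 9.30% and 2.52%. With promoter windows included, the shares over all male windows were 4.07%, 0.696%, 8.04% and 2.19%. For each of the 6 motifs the intervals of distal male-only and female-only windows overlapped. Mean GC content was 47.6% in distal male-only, 48.8% in distal female-only and 49.0% in distal shared male windows.

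Chromosome Y had 27 H3K27ac peaks in the E1/E2-KO male list and 0 in the female list, as the labels of sex require. Within 10 kb of Xist, the RNA gene of X inactivation, each of these lists held 1 peak, and the control lists held 0 in male and 3 in female liver. The targeted genes could not be checked in these lists, since a peak at a locus does not show a deleted exon. Ezh2 had 2 peaks in each E1/E2-KO list and 3 in each control list. Ezh1 had 3 in the male and 2 in the female E1/E2-KO list, and 1 in the control male and 4 in the control female list. Peaks were listed at 9 of 10 hepatocyte marker genes, 10 of 10 endothelial, 8 of 10 stellate cell, 4 of 8 cholangiocyte, 3 of 9 macrophage, 6 of 9 lymphocyte and 1 of 5 neutrophil marker genes, against 72.0% of all protein-coding genes. In whole liver, fewer cells of a type and less of the mark per cell cannot be told apart.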

How the data were processed

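Chromatin from frozen livers of 7 week old mice was immunoprecipitated for H3K27ac, H3K4me1 and H3K27me3, and the authors pooled the livers of a group before calling peaks. The submitters' processing notes name Bowtie2 2.3.2, MACS2 2.1.1, SICER 1.1 and genome build mm9. The deposited lists give chromosome, start and end positions per peak, and no other columns were used. Read depth was not given in the sources used here, and no value is normalized for it. Lists were compared on 19 autosomes with Python 3.11.15, numpy 2.4.6, scipy 1.17.1 and matplotlib 3.10.9, and peaks were assigned to genes and starts of the GENCODE M1 annotation on NCBIM37 (mm9). The overlaps, one-list classes, gaps and intervals were tested on simulated lists, and the gene counts were not. Genes were named by a rule, the 10 per sex with the most one-list peaks of that sex and none of the other (a gene sharing over 50% of those peaks with one already taken was skipped), list members with 3 or more one-list peaks of 1 sex alone or a difference of 2 or more, Ezh1 and Ezh2, and genes nearest the printed sequences and longest runs. Other names were chosen after their values were seen. Members and lists were chosen with earlier results of these data known, the sex-biased lists from general knowledge of mouse liver. The C6 and A1bg sequences were chosen after their values were seen. The alternatives were other overlaps, promoter distances, gene spans and peak selections. Wilson intervals treat neighbouring peaks as independent and are therefore too narrow. One member of the lipid list is not reported by name here.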

Additional observations from a re-analysis of the deposited data

How the results depend on the processing

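No paired analysis was possible because the livers were pooled before peaks were called, and leaving out a liver could not be run for the same reason. The values below are in the order male-only, female-only. Where 50% of a peak had to be covered, the one-list shares were 38.3% and 25.7%, same-sex H3K4me1 was at 39.4% and 25.3%, and promoter shares were 13.3%, 14.0% and, for shared peaks, 41.6%. With peaks of a list within 1 kb merged, the one-list shares were 27.3% and 20.7%, same-sex H3K4me1 at male-only peaks 46.8%, the median width of shared peaks 1024 bp, and the genes with 3 or more one-list peaks of 1 sex alone numbered 195 and 59. With the widest 50% of each list the values were shares of 26.3% and 18.02%, promoter shares of 17.9%, 20.2% and 54.7% (shared), and 184 and 43 genes. With equal numbers of the widest peaks they were 26.8% and 23.6%, and 295 and 220 genes. Leaving out peaks with an other-list peak within 1 kb gave 20.2% and 13.6%. H3K4me1 within 500 bp was at 57.7% and 41.0%. Promoter shares, shared peaks last, were 6.06%, 7.00% and 33.4% within 250 bp, 20.7%, 21.8% and 46.0% within 3 kb, and 10.2%, 11.6% and 37.3% with protein-coding starts. Genes numbered 285 and 80 in the gene span alone, 1185 and 248 with 50 kb, and 77 and 10 with 5 or more peaks. No direction reversed under these settings. The sex-biased gene lists under these settings were examined after seeing the data: male-biased genes with more male-only peaks numbered 8 to 26 (1 to 7 with fewer), and female-biased genes with more female-only peaks 15 to 17 (3 to 10 with fewer). The cause of these changes was not tested, and without read depth a peak missing from a list cannot be told apart from one too weak to be called.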

Other observations

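Besides those at C6 and Acot3, some of the widest one-list peaks are given here, chosen after their values were seen. The widest male-only peak, 1769 bp, was intergenic, 326048 bp from the start of Pvrl3, and was in the control female list. A male-only peak of 1507 bp stood 111460 bp from the start of Apob, the main protein of very low density lipoprotein, and was in both control lists. Female-only peaks of 1212 bp in Wipf1, an actin regulator, and of 1119 bp in Taf8, a subunit of TFIID, were in the control female list alone.

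One-list peaks were also counted at marker genes of liver cell types, beside a male-only share of 60.8% over all protein-coding genes. Hepatocyte markers had 15 male-only and 7 female-only peaks over 10 genes, 68.2% male-only (47.3 to 83.6). Of these, Apoa1, an apolipoprotein of high density lipoprotein, had 4 male-only and 1 female-only, Alb, albumin, and Trf, transferrin, had 3 and 0 each, and Tat, tyrosine aminotransferase, had 0 and 2. Endothelial markers had 18 and 14 over 10 genes, 56.2% male-only (39.3 to 71.8). Their median gene length was 44.3 kb against 10.9 kb for the hepatocyte markers, and the median of male-only peaks per 10 kb was 0.25 against 0.256. Stellate cell markers had 5 and 7 over 10 genes, 41.7% male-only (19.3 to 68.0). Hand2, a transcription factor of stellate cells, had 2 female peaks and 0 male peaks in E1/E2-KO liver, at least 152275 bp from a male peak, and Ecm1, an extracellular matrix protein, had 2 male-only and 0 female-only peaks. Macrophage markers had 2 and 1 over 9 genes, cholangiocyte markers 8 and 5 over 8 genes, lymphocyte markers 3 and 3 over 9 genes and neutrophil markers 0 and 1 over 5 genes. The intervals of the hepatocyte, endothelial and stellate cell lists hold the value of all genes. The part of cell composition in the sex difference was not tested.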
